A study of Mus musculus with 6 samples.

Results

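miR-499 and miR-486a are microRNAs (miRNAs) of muscle that are carried by introns of protein-coding genes, miR-499 by Myh7b and miR-486a by Ank1. Their mature arms were taken by name from the small RNA tables of a study on C2C12, a mouse myoblast line in wide use. The names gave 3 of the 49 listed miRNAs, mmu-miR-499-5p, mmu-miR-486a-5p and mmu-miR-486a-3p (written below without the species prefix), from 2 hairpin genes, and each was listed in all 6 libraries. The groups were 3 libraries of wild-type cells (WT) and 3 libraries of cells that lack functional myostatin after CRISPR/Cas9 editing (MSTN-KO). Myostatin is a secreted inhibitor of muscle growth. All cells were C2C12 myoblasts grown in serum-containing medium, and the MSTN-KO cells were a single edited line named C11. The strain label reads C11 in the WT samples too, so the groups rest on the titles and the genotype label, and the myostatin transcript was not analysed here. No value in the tables checks these labels, and an exchange of the group names would turn every direction given below. Nothing in the labels says that the libraries of a group came from separate cultures, so p-values measure the spread between these libraries, which may be technical.

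A miRNA is cut from a hairpin precursor, whose 5p arm, 3p arm or both can be loaded into the silencing complex and guide it to messenger RNAs through bases 2 to 8, the seed. Intronic miRNAs are transcribed as part of their host gene or from a promoter inside it. Myh7b encodes a slow-type myosin heavy chain, and miR-499 with its relatives miR-208a and miR-208b, which also sit in myosin genes, represses Sox6 and favours the slow fibre programme. Ank1 encodes ankyrin, an anchor between membrane and cytoskeleton, and miR-486 represses Foxo1, a transcription factor that promotes muscle wasting. miR-486 is also abundant in red blood cells. Both miRNAs are known to increase when myoblasts differentiate, as do miR-1, miR-133 and miR-206.

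Mir499 lay on the plus strand at chr2:155622880-155622958 (GRCm38), in intron 19 of the Myh7b transcript with 42 exons, an intron of 481 bases. The RefSeq sequences of GRCm38.p6 held 1 of the 3 miRNAs, miR-499-5p. Its 79-base hairpin is shown with the mature 5p arm in capitals, because the 5p arm is the only product of this hairpin in the tables.
Mir499 hairpin: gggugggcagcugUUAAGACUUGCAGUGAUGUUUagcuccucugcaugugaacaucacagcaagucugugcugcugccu
The mature arm is set below against the other arm of the hairpin and the 3p arms of miR-208a and miR-208b, with each seed in capitals, to show how close they are.
miR-499-5p: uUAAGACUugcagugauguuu
miR-499-3p: gAACAUCAcagcaagucugugcu
miR-208a-3p: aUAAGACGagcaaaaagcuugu
miR-208b-3p: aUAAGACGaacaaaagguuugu
Among 1679 mature names, miR-499-5p was the only 1 with its full seed, and 3 shared bases 2 to 7, namely miR-499-5p, miR-208a-3p and miR-208b-3p. Read from the 5′ end, miR-499-5p had the same base as miR-208a-3p at 12 of 21 positions and as miR-208b-3p at 10 of 21. None of the other 31 listed miRNAs with a RefSeq sequence had the miR-499-5p seed (0 of 31). miR-499-3p, miR-208a-3p and miR-208b-3p were not analysed here.

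Mir486 lay on the plus strand at chr8:23142555-23142682 (GRCm38), in intron 44 of the Ank1 transcript with 46 exons, an intron of 6560 bases. All 15 annotated Ank1 transcripts that span the hairpin have it in an intron. It starts 167711 bases after the Ank1 start and ends 7815 bases before the Ank1 end, so it belongs to the last part of a long gene. A second hairpin, Mir3107, occupies chr8:23142573-23142662 on the opposite strand, and all 90 of its bases lie inside Mir486. How the authors divided reads between the overlapping hairpins is not given in the sources used here, so the miR-486a values may hold reads of Mir3107.

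Depth set what could be seen of each arm. The authors' values are RPM, reads per 1000000 reads of a library total, and the worth of 1 read gave totals of 5502214 to 11823489 reads per library. In MSTN-KO replicate 1, the shallowest library, 3 reads correspond to 0.545 RPM. The 49 listed miRNAs hold 0.773% to 3.47% of these totals. Since WT and MSTN-KO values of all 49 are apart, the tables look like a selection made on this contrast, and they give no unselected background. If so, low p-values and groups without overlap were set by the selection. For a single miRNA below they describe the values and are no independent support for a change.

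By the labels, all 3 arms had less RPM in MSTN-KO than in WT. miR-486a-5p and miR-486a-3p had 44.1% and 46.1% of their WT mean, and miR-499-5p had 16.3% of its WT mean. In RNA from whole cultures, fewer cells of a type and less RNA per cell cannot be told apart.

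miR-486a-5p was among the more abundant listed miRNAs, at rank 4 or 5 of the 49 in every library. It had 259.9, 408 and 232 RPM in WT replicates 1, 2 and 3, and 101 RPM in MSTN-KO replicate 1, 158 in replicate 2 and 138 in replicate 3. The lowest WT library was thus 1.47 times the highest MSTN-KO library, and the groups did not overlap. The group means were 300.0 ± 94.6 and 132 ± 28.5 RPM (SD, n = 3 each). On the log2(RPM + 1) scale the change was -1.15 with a standard error of 0.27 and a 95% interval of -1.76 to -0.55 (limma adjusted p = 0.00254). These values rested on 7232 WT and 3264 MSTN-KO reads, and the exact 95% Poisson interval of WT replicate 1, from 248 to 273 RPM, was narrow beside the range of the WT libraries.

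miR-486a-3p, the minor arm of the same hairpin, had 28.1, 35.2 and 22.6 RPM in WT replicates 1, 2 and 3, and 9.996, 17.4 and 12.2 RPM in MSTN-KO replicates 1, 2 and 3. The groups again did not overlap, with the lowest WT library at 1.30 times the highest MSTN-KO library. The means were 28.6 ± 6.35 and 13.2 ± 3.80 RPM (SD, n = 3 each), a log2 change of -1.07 ± 0.26 (SE, 95% interval -1.65 to -0.50, limma adjusted p = 0.00278).

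miR-499-5p was scarce. It had 4.47, 6.12 and 3.98 RPM in WT replicates 1, 2 and 3, which are 29, 42 and 47 reads. In MSTN-KO replicates 1, 2 and 3 it had 0.182, 1.15 and 1.03 RPM, which are 1, 11 and 9 reads. No MSTN-KO library came near the WT range, and the lowest WT library was 3.45 times the highest MSTN-KO library. The 1 read of MSTN-KO replicate 1 has an exact 95% Poisson interval of 0.0253 to 5.57 reads, so this library shows that the level was under 1.01 RPM but not how far under. The means were 4.85 ± 1.12 and 0.789 ± 0.529 RPM (SD, n = 3 each). The log2 change was -1.74 ± 0.27 (SE, 95% interval -2.36 to -1.13, limma adjusted p = 0.000318), and it was -1.47 without MSTN-KO replicate 1 (adjusted p = 0.000354). Because the level was near the pseudocount of 1 RPM, the size of this change depended on it, with -2.73 at a pseudocount of 0.1 and -0.46 at 10. Summed over libraries, the WT rate was 5.30 times the MSTN-KO rate (118 against 21 reads, exact 95% interval 3.31 to 8.88, which covers counting error only).

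**Figure D1:**
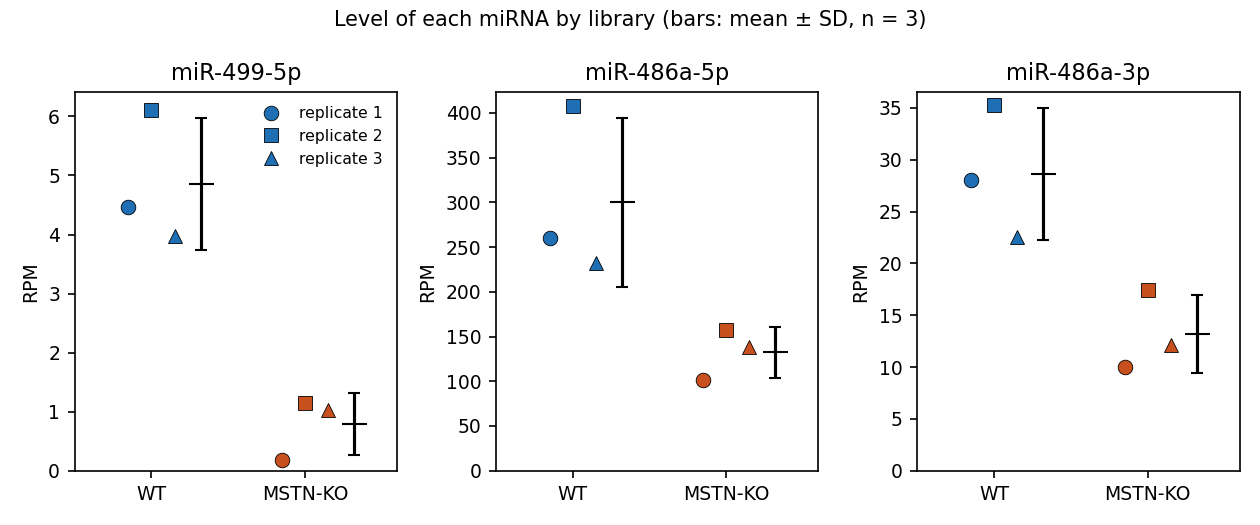
RPM of miR-499-5p, miR-486a-5p and miR-486a-3p in each library, with WT in blue and MSTN-KO in orange, the marker shape for the replicate number and black bars for the mean and SD (n = 3). The WT libraries lie above the MSTN-KO libraries in each panel, and replicate 2 is the highest of its group in each.

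Of the 3 arms, 3 were lower at an adjusted p-value under 0.05, where 71.4% of the listed miRNAs were called lower. By the stricter rule taken from the methods of the study, which adds a log2 change below -1 to an unadjusted p-value under 0.05, 3 of 3 passed beside 57.1% of the list. The absence of overlap in the lower direction also held for 71.4% of the list, and these counts do not set the 3 arms apart from it. Their median log2 change was -1.15, and that of all 49 was -1.07.

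The libraries kept 1 order in the 3 arms. Within the WT group replicate 2 was the highest and replicate 3 the lowest, and within the MSTN-KO group replicate 2 was the highest and replicate 1 the lowest. This order, read from miR-486a-5p, occurred in 8 of the 49 listed miRNAs. Of these, 6 were muscle miRNAs, namely the 3 arms themselves and 3 of the 7 other listed muscle miRNAs. The sum of all listed miRNAs had it too. Replicate numbers name libraries and carry no rank.

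Ratios within a library do not depend on the library total. Between the arms of miR-486a the ratio was similar in both groups. WT replicates 1, 2 and 3 had 9.26, 11.6 and 10.3 reads of the 5p arm for each 3p read, and MSTN-KO replicates 1, 2 and 3 had 10.1, 9.07 and 11.3. The groups overlapped fully, and the difference of the log2 ratios was -0.03 (exact two-sided permutation test, p = 0.7), with differences between single MSTN-KO and WT libraries from -0.35 to 0.29. Of the miR-486a reads, the 5p arm took 91.1% ± 0.897 in WT and 91.0% ± 0.912 in MSTN-KO (SD, n = 3 each). The 95% Wilson intervals of single libraries reached from 88.5% to 93.2%, and those of all 6 libraries overlapped each other.

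The ratio of miR-499-5p to miR-486a-5p was lower in each MSTN-KO library than in any WT library. For each read of miR-499-5p, WT replicates 1, 2 and 3 held 58.1, 66.7 and 58.4 reads of miR-486a-5p, a range narrower than the counting error of miR-499-5p, whose 29 reads in replicate 1 have an exact 95% Poisson interval of 19.4 to 41.6. MSTN-KO replicates 1, 2 and 3 held 558, 136.8 and 133.4. The groups did not overlap, and the difference of the log2 ratios was -1.83. For miR-499-5p against miR-486a-3p it was -1.86. With 3 against 3 libraries an exact two-sided permutation test cannot go under 0.1, which is the value that both gave (0.15 after Benjamini-Hochberg adjustment over the 3 pairs of arms). Without MSTN-KO replicate 1, with its 1 read, these differences were -1.15 and -1.18.

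The other muscle miRNAs in the tables were 7 arms of miR-1a, miR-133a, miR-133b and miR-206, of which miR-1 and miR-206 promote myoblast differentiation and miR-133 supports myoblast proliferation. By the labels, all 7 were lower in MSTN-KO (limma adjusted p under 0.05, against 71.4% of the list), with log2 changes from -4.96 to -1.05 and a median of -1.55. Under each of the 3 rescalings described below, miR-133a-3p, miR-133b-3p, miR-206-3p and miR-206-5p lost the call. Scaled to the listed total they had 0.067, 0.27, -0.12 and 0.21, with limma adjusted p-values of 0.841, 0.484, 0.683 and 0.509. For miR-206-3p, rank 1 of the 49 in every library, quantile normalization gave each library the same value, so its loss of the call there was fixed. It also makes up most of the listed total, so its change on that scale had to be small. miR-1a-3p and miR-133b-5p stayed lower under all 3 rescalings, and miR-133a-5p under 2 of them (limma adjusted p = 0.0543 under quantile normalization). In the order of change at a pseudocount of 1, miR-499-5p came after miR-1a-3p (-4.96), miR-133a-5p (-2.33) and miR-133b-5p (-2.11). That order depended on the pseudocount: at 0.1 miR-499-5p (-2.73) passed miR-133b-5p (-2.63), and at 10 it had the smallest change of the 10 (-0.46). At a pseudocount of 1 both miR-486a arms stood near miR-133b-3p (-1.15) and miR-206-5p (-1.05).

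**Figure D2:**
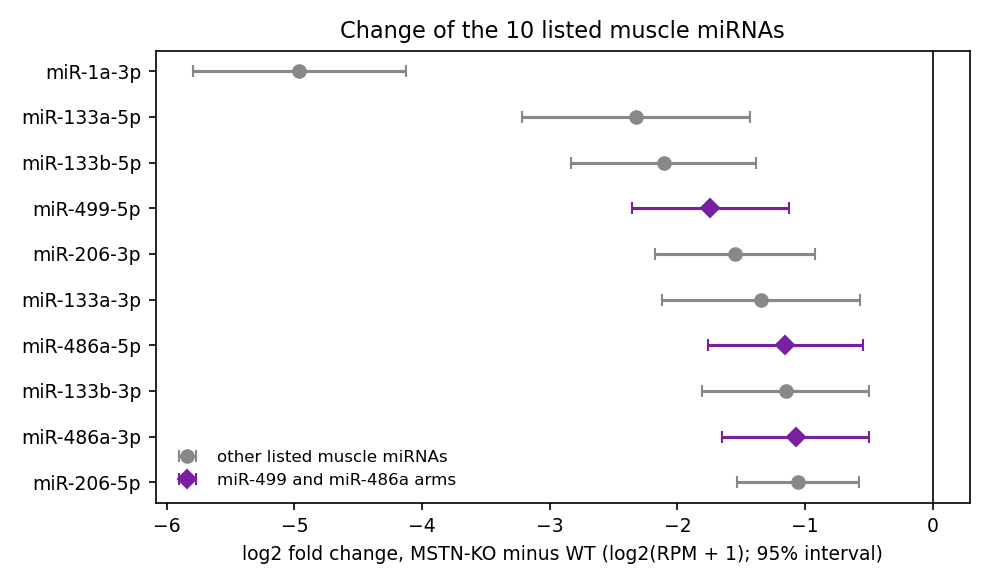
Log2 fold change of the 10 listed muscle miRNAs, MSTN-KO minus WT on the log2(RPM + 1) scale, with 95% intervals from limma. All 10 intervals lie below 0, miR-1a-3p lies farthest at -4.96, and the miR-486a arms lie at -1.15 and -1.07.

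Each arm was set against miR-206-3p, miR-1a-3p, miR-133a-3p and miR-133b-3p in the same library, which makes 12 ratios, and 8 of them separated the groups. How many ratios between other listed miRNAs do so was not counted, so this count does not set the arms apart from the list. The ratio of miR-486a-5p to miR-133b-3p differed by 0.0041 on the log2 scale between groups (exact permutation p = 1), and single differences ran from -0.43 to 0.50. It was 2.01, 1.94 and 1.47 in WT replicates 1, 2 and 3 and 2.08, 1.86 and 1.49 in MSTN-KO replicates 1, 2 and 3, so the groups overlapped. For miR-486a-5p against miR-133a-3p the difference was 0.21 (exact permutation p = 0.4), and the groups overlapped. miR-486a-3p gave differences of 0.031 against miR-133b-3p and 0.24 against miR-133a-3p, also with overlap.

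Against miR-206-3p, the most abundant listed miRNA and the one most typical of skeletal muscle, miR-486a was relatively higher in the MSTN-KO libraries. There were 94.8, 77.3 and 78.9 reads of miR-206-3p for each miR-486a-5p read in WT replicates 1, 2 and 3, and 60.6, 68.3 and 61.8 in MSTN-KO replicates 1, 2 and 3. The groups were apart in this ratio by 0.39 for the 5p arm and by 0.42 for the 3p arm on the log2 scale. The separation from miR-1a-3p was wide. miR-486a-5p had 1.37, 1.67 and 1.37 reads for each miR-1a-3p read in WT replicates 1, 2 and 3, and 34.9, 14.6 and 29.3 in MSTN-KO replicates 1, 2 and 3, a log2 difference of 4.07. 

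miR-499-5p lay between these. Its log2 ratio differed by -1.44 against miR-206-3p (-0.79 without MSTN-KO replicate 1) and by -1.62 against miR-133a-3p, and the difference against miR-133b-3p was -1.83. Relative to miR-1a-3p it was higher by 2.24. All 4 of its ratios separated the groups, and here too other listed pairs were not counted. For each miR-499-5p read, WT replicates 1, 2 and 3 had 42.4, 40.0 and 42.5 reads of miR-1a-3p, and MSTN-KO replicates 1, 2 and 3 had 16, 9.36 and 4.56. The narrow WT range is below the counting error of miR-499-5p, with 29, 42 and 47 reads in WT replicates 1, 2 and 3. The value of 16 rests on 1 read of miR-499-5p. Each of the 8 ratios without overlap had an exact permutation p of 0.1, the smallest possible (0.15 after adjustment over the 12).

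**Figure D3:**
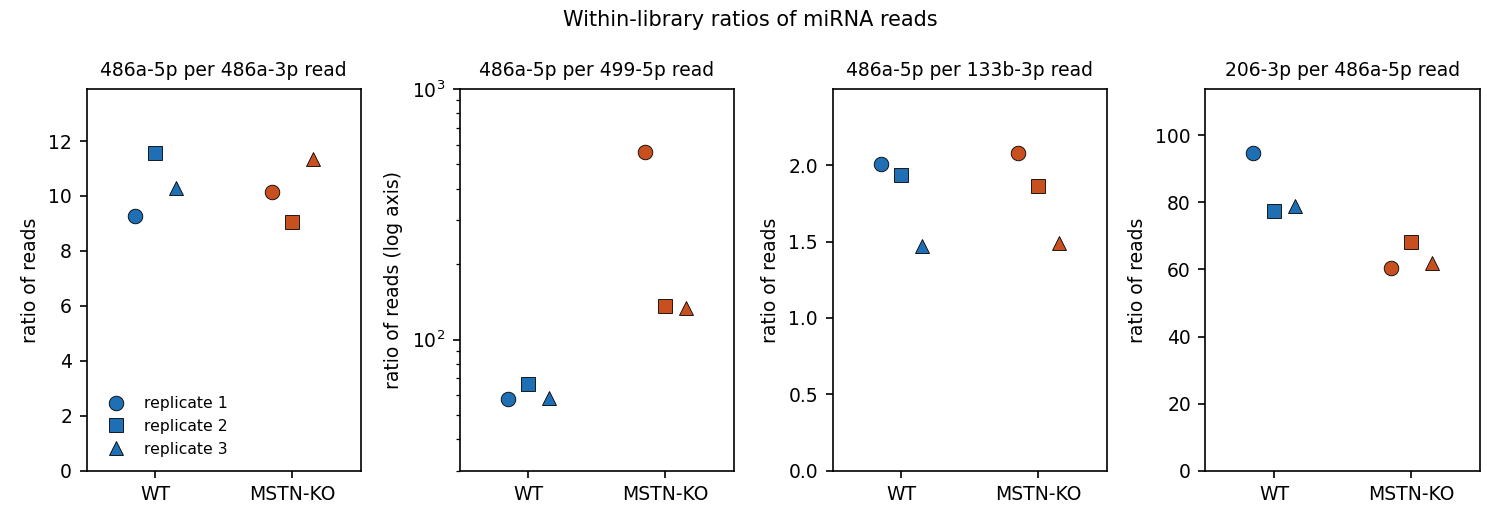
Ratios of reads within each library, with WT in blue, MSTN-KO in orange and the marker shape for the replicate number; the axis of the miR-499-5p panel is logarithmic and the others start at 0. The groups overlap for miR-486a-5p against miR-486a-3p and against miR-133b-3p, and they are apart against miR-499-5p (58.1 to 66.7 in WT, 133.4 to 558 in MSTN-KO) and against miR-206-3p.

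Together, the 3 arms took a larger share of the muscle miRNA reads in each MSTN-KO library than in any WT library. They made up 1.15%, 1.38% and 1.36% of the RPM of the 10 muscle miRNAs in WT replicates 1, 2 and 3, and 1.76%, 1.59% and 1.71% in MSTN-KO replicates 1, 2 and 3. The groups did not overlap, and the means were 1.30% ± 0.125 and 1.69% ± 0.0893 (SD, n = 3 each, exact two-sided permutation p = 0.1). Most of the muscle RPM was miR-206-3p, with 24649 of 25357 in WT replicate 1 and 6143 of 6334 in MSTN-KO replicate 1. This share is thus close to the ratio of miR-486a-5p to miR-206-3p given above and is no separate result. With miR-206-3p left out of the sum, the shares were 40.0% ± 2.70 and 54.0% ± 4.32 (p = 0.1 in the same exact test). That smaller sum holds miR-1a-3p, with means of 201 RPM in WT and 6.14 in MSTN-KO, and its fall raises the share of the arms. The share without miR-1a-3p was not calculated. Against miR-133b-3p and miR-133a-3p, which the smaller sum also holds, miR-486a-5p differed by 0.0041 and 0.21 on the log2 scale. The groups overlapped in both ratios, so a gain of the arms over the rest of this sum is not shown. The summed RPM of the 3 arms was between 259 and 449 in the WT libraries and between 112 and 176 in the MSTN-KO libraries, so the larger share came with a lower level. Most of this sum was miR-486a-5p, with means of 300.0 RPM in WT and 132 in MSTN-KO. miR-499-5p, with 4.85 and 0.789 RPM, was a small part of it and did not gain share, as it fell relative to miR-206-3p.

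The size and sign of the change in miR-486a depended on the scale of the libraries. The 10 muscle miRNAs held 90.4% to 93.9% of the listed RPM in the WT libraries and 82.0% to 88.1% in the MSTN-KO libraries. Most of it was miR-206-3p, with 24649 of 27216 listed RPM in WT replicate 1 and 6143 of 7727 in MSTN-KO replicate 1. A scale taken from the listed total is thus close to a scale taken from miR-206-3p, and is no separate check beside the ratios to miR-206-3p. Scaled to that total, the log2 changes of miR-486a-5p and miR-486a-3p were 0.27 and 0.29 (limma adjusted p = 0.39 and 0.355). Median-of-ratios scaling over the list gave -0.024 and 0.0026 (limma adjusted p = 0.949 and 0.994), and quantile normalization gave -0.29 and -0.66 (limma adjusted p = 0.138 and 0.0226). As deposited, the median log2 change of the 49 was -1.07, beside -1.15 for miR-486a-5p and -1.07 for miR-486a-3p. A scale set by the median of this list therefore had to bring both arms near 0, whatever their true change. Listed-total, median-of-ratios and quantile scaling moved the median of all 49 miRNAs up by 1.23, 0.99 and 0.90, in that order. They left 14 higher and 10, 12 and 12 lower miRNAs at an adjusted p-value under 0.05, in place of 14 higher and 35 lower. miR-499-5p kept its direction, with -0.90 under the listed total, -1.06 under median of ratios and -0.77 under quantile normalization (limma adjusted p = 0.0284, 0.00894 and 0.151). Which library total is the right denominator was not tested.

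**Figure D4:**
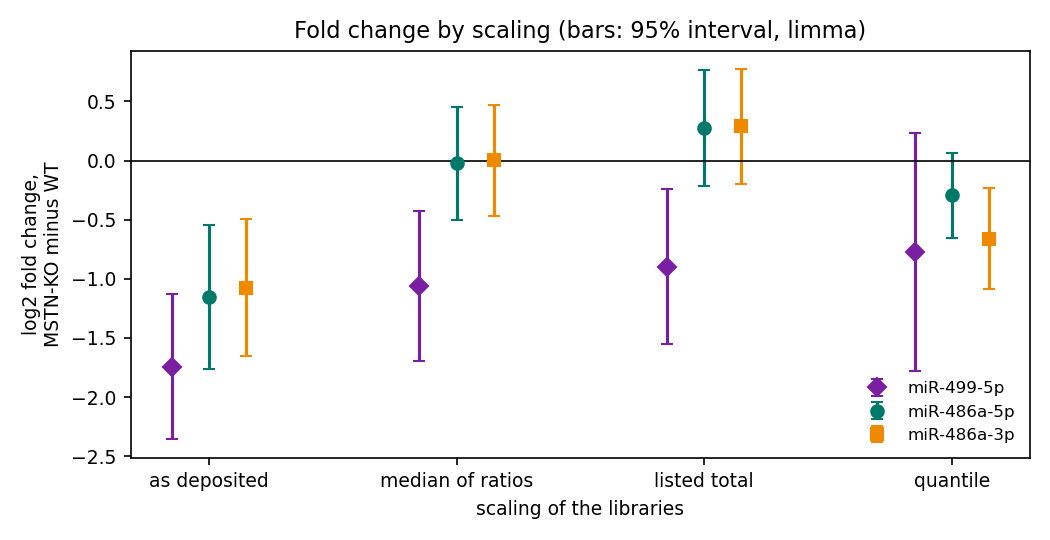
Log2 fold change (MSTN-KO minus WT) of the 3 arms with the libraries as deposited and under 3 rescalings on the listed miRNAs, with 95% intervals from limma. The miR-486a arms move from below -1 to values between -0.66 and 0.29, and miR-499-5p lies at -0.77 to -1.74. Under quantile normalization the interval of miR-486a-3p (-1.09 to -0.23) lies below 0, and that of miR-499-5p (-1.78 to 0.23) crosses 0.

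The listed miRNAs with the most similar profiles were found by the root-mean-square difference of centred log2(RPM + 1) values over the 6 libraries. The arms of miR-486a were closest to each other (0.13). The nearest other miRNAs were miR-206-5p (0.16), miR-1933-3p (0.18) and miR-669c-5p (0.24) for miR-486a-3p, and miR-1933-3p (0.18), miR-206-5p (0.19) and miR-133b-3p (0.20) for miR-486a-5p. For miR-499-5p they were miR-206-3p (0.16), miR-1933-3p (0.25) and miR-133b-5p (0.27). The median difference from all 46 other miRNAs was 0.60 to 0.64. Profiles of miRNAs near 1 RPM are flattened by the pseudocount, which touches miR-499-5p. Its nearness to miR-206-3p depended on the pseudocount. The log2 changes of miR-499-5p and miR-206-3p were -1.74 and -1.55 at 1 RPM, and -2.73 and -1.55 at 0.1. Without a pseudocount their log2 ratio differed by -1.44 between the groups.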

How the data were processed

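Small RNA libraries of 3 WT and 3 MSTN-KO samples were grouped by sample title. The deposited values are RPM, 1 per miRNA and library. The submitters' processing notes name Bowtie 0.12.2 and the build mm8; how reads were counted and the catalogue used are not given in the sources used here, and the article calls its expression values FPKM. The article describes a screen of miRNAs by p-value and fold change between these groups, and the 49 may be its outcome. All values above 0 were whole multiples (within 0.01) of 1 step per library, taken as 1 read; its inverse gave the library total. With 49 values per library, no count model was fitted, and recovered reads served for description, counting intervals and the chi-square between libraries.

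log2(RPM + 1) was compared over all listed miRNAs with limma 3.58.1 (R 4.3.3, lmFit and eBayes, two-sided, no covariate), keeping miRNAs that reach 1 RPM in at least 1 library, with Benjamini-Hochberg adjustment over all 49. The fit was tested on simulated data. Within-library ratios, without pseudocount, and shares were compared by exact permutation tests (scipy 1.17.1). Sampling noise did not account for the differences between libraries of a group (chi-square of at least 456 on 47 degrees of freedom), so each counted as 1 sample. The alternatives were other pseudocounts, filters and scalings, a mean-variance trend, the replicate block and leaving out each library. Intervals and floors cover counting error only, as reads carry no molecular identifiers. Hairpin coordinates are those of GENCODE M21.

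The named miRNAs are the 3 arms, every listed muscle miRNA and the 3 nearest profiles of each arm. Members and lists were chosen with earlier results of these data known.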

Additional observations from a re-analysis of the deposited data

How the results depend on the processing

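The 3 arms stayed lower in the MSTN-KO group with an adjusted p-value under 0.05 (limma) under other pseudocounts, a mean-variance trend and the replicate block. They also did so without any single library, and a mean of at least 10 RPM left miR-499-5p untested. As the listed miRNAs may have been selected on this contrast, these calls are no independent support. Without 1 library at a time the log2 changes ran from -1.90 to -1.47 for miR-499-5p, from -1.32 to -0.91 for miR-486a-5p and from -1.28 to -0.91 for miR-486a-3p. Under the rescalings miR-486a-5p had -0.024 (median of ratios), 0.27 (listed total) and -0.29 (quantile), miR-486a-3p had 0.0026 and 0.29 under the first pair, and miR-499-5p had -0.77 under quantile normalization; apart from the make-up of the listed total, the cause was not tested.

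miRNAs past the fold cut-off numbered 42 as deposited, 17 with a pseudocount of 10 (5 higher and 12 lower), 21 at a mean of at least 10 RPM, where only 22 were tested, and 25, 24 and 23 under median of ratios, listed total and quantile scaling. At an adjusted p-value under 0.05 there were 49 as deposited and 22, 26, 24 and 26 under the same filter and scalings. Leaving out 1 library gave 35 to 42 and 48 to 49.

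The miR-486a arm ratio changed sign without WT replicate 2 or MSTN-KO replicate 2 (-0.11 to 0.055 over the 6 libraries left out), and so, without WT replicate 3, MSTN-KO replicate 1 or MSTN-KO replicate 2, did the ratios of miR-486a-5p (-0.14 to 0.14) and miR-486a-3p (-0.11 to 0.25) to miR-133b-3p. The range was -2.18 to -1.15 for miR-499-5p against miR-486a-5p, -2.29 to -1.18 against miR-486a-3p, and 0.32 to 0.44 percentage points for the share of the arms, with the miR-499-5p ratios nearest to 0 without MSTN-KO replicate 1. Leaving out libraries and the block for the ratios to other muscle miRNAs were chosen after seeing the data.

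With the replicate block the log2 changes were -1.74, -1.15 and -1.07 and the adjusted p-values 0.00138, 0.00259 and 0.00259 (limma) for miR-499-5p, miR-486a-5p and miR-486a-3p, and 42 and 49 miRNAs passed, so no call changed. Same-numbered libraries correlated in their deviations by 0.0047, 0.22 and 0.056, and the numbers were not taken as pairs. Depth limits miR-499-5p, with 1 to 11 reads in the MSTN-KO libraries.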
